A study of Mus musculus with 12 samples.

Results

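YY1 binding was examined at the loci of 10 genes that encode transcription factors and cofactors of blood stem and progenitor cells (Gata2, Runx1, Tal1, Fli1, Erg, Lmo2, Meis1, Lyl1, Mecom and Hhex), out of 21755 protein-coding genes of the GENCODE M21 annotation. The genes were listed by name and not by a YY1 value, but earlier results of these data were known when they were chosen. A locus was the gene body with 50 kb on either side (mouse build mm10, which is GRCm38). The 10 loci held 56 of the 19768 regions with a YY1 peak in any of the 4 libraries and 34 of the 14168 consensus regions, which had a peak in at least 2 libraries.

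The 4 libraries were YY1 ChIP-seq of lineage-negative (Lin−) cells from the bone marrow of female mice (129Sv4/Jae x B6, aged 3 months). Of these, 2 came from the wild type (WT) and 2 from mice that had lost both copies of Xist in their blood cells (XistΔ/Δ). Xist, a noncoding RNA of the inactive X chromosome in female cells, silences that chromosome, and the comparison asked whether YY1 occupancy changes when it is lost. The deletion was made with Vav-iCre, a transgene in which sequences of the blood gene Vav1 drive the Cre recombinase, so cells outside the blood lineage were not its target, and whether WT mice had the transgene is not given in the labels. The labels call the libraries replicates and do not say that each came from a separate mouse, so the spread between them may be partly technical. Another 8 samples of the series, with histone marks, were not analysed here.

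The replicate 2 libraries were far deeper than the replicate 1 libraries, with 50.0 and 59.5 M tags (aligned reads) in WT and XistΔ/Δ against 24.9 and 23.1 M tags. Peak lists were of unequal length, between 9553 peaks (WT replicate 1) and 18113 peaks (XistΔ/Δ replicate 2). Median peak widths were 892 bp (WT replicate 1), 925 bp (WT replicate 2), 777 bp (XistΔ/Δ replicate 1) and 892 bp (XistΔ/Δ replicate 2), so XistΔ/Δ replicate 1 had the narrowest peaks. Replicate 1 and replicate 2 libraries also carry different numbers, of unstated meaning, in the file headers, so each difference between genotypes is given within each replicate number as well. Where a genotype is given 2 values, the first is from replicate 1 and the second from replicate 2. At the Xist promoter the WT libraries had peaks of 3083 and 3222 bp and neither XistΔ/Δ library had a peak, in keeping with the genotype labels.

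The 10 genes belong to a densely connected regulatory network. Gata2 (a zinc-finger GATA factor), Runx1 (the DNA-binding partner of Cbfb), Tal1 and Lyl1 (related basic helix-loop-helix factors), Fli1 and Erg (related ETS factors) and Lmo2 (a bridging cofactor that binds no DNA itself) occupy many shared enhancers in blood progenitors. Meis1 (a homeodomain partner of Hox and Pbx proteins), Mecom (whose long form is a zinc-finger and SET-related protein) and Hhex (a homeodomain factor) are further genes with known roles in stem cell maintenance or blood development. Several of the genes have alternative promoters, of which the distal and proximal promoters of Runx1 (P1 and P2) are the best known. YY1 is a ubiquitous zinc-finger factor that binds promoters and enhancers, and its DNA motif has the core AANATGGC, most often AAGATGGC.

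Regions were of 3 classes. An own-promoter region came within 3 kb of an annotated start of the listed gene, another promoter region came within 3 kb of a start of a neighbouring gene, coding or not, and a distal region came near no start. Of the 56 regions, 15 were own-promoter, 14 were promoters of neighbours and 27 were distal. The core AANATGGC was searched on both strands in the central 300 bases of the consensus regions. These letters were chosen with the region sequences in view. They occurred in 6 of the 14 distal consensus regions of the 10 loci, 5 of them in the Runx1 locus and 1 in Erg, and in 15.6% of the 3279 distal consensus regions of the genome. Among promoter consensus regions they occurred in 1 of 20 in the loci, the region upstream of Gata2, and in 9.13% of 10886 in the genome. A match is a string of letters and does not show that YY1 touched it.

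Sequences from within the YY1 regions are shown for the distal regions that every library shared (Runx1 and Lyl1), the region upstream of Gata2, the widest distal regions of Erg and Fli1, and the promoters of Runx1 and Erg. The last pair, an array and an upstream site of Runx1, were chosen after their values were seen. Each runs 5′ to 3′ from the GRCm38 genome, with capitals marking the core, and none overlaps a UTR. Distances are from the outermost start of the gene, below 0 where the region is upstream. A region joins the peaks of all libraries, so a core can lie outside the peaks of a given library. The Erg promoter core lay under no peak of the replicate 1 libraries. Some of the cores shown were far from the centre of their region, at 386 (Fli1), −455 (Erg promoter) and 1259 bases (Runx1 P1), below 0 towards lower coordinates. The Erg promoter and Runx1 P1 regions each held another core nearer the centre, which is not shown.
Runx1 intronic region at 110.7 kb, chr16:92715353-92715460, minus strand: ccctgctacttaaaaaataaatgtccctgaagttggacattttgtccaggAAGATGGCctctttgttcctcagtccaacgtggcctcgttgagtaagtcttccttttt
Lyl1 distal region at 28.9 kb, chr8:84730114-84730221, minus strand: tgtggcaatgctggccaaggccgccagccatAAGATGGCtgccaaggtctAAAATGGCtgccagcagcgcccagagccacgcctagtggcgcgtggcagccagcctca
Gata2 upstream region at −4.1 kb, chr6:88189759-88189866, plus strand: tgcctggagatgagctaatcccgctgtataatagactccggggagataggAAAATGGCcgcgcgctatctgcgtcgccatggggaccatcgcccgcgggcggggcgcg
Erg intronic region at 158.5 kb, chr16:95428015-95428122, minus strand: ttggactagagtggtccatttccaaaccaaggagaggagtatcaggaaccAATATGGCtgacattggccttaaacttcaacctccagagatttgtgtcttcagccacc
Fli1 intronic region at 42.2 kb, chr9:32500962-32501069, minus strand: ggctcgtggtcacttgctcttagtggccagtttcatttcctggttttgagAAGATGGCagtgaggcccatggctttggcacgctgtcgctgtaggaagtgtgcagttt
Runx1 P1 region, chr16:92825479-92825586, minus strand: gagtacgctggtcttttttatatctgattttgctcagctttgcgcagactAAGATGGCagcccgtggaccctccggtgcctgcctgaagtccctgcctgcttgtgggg
Erg promoter region, chr16:95456863-95456970, minus strand: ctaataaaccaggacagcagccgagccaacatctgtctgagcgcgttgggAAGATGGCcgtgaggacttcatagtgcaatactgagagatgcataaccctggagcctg
Runx1 intronic region at 196.0 kb, chr16:92630008-92630097, plus strand: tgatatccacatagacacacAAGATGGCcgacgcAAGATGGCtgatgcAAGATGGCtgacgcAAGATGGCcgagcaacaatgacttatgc
Runx1 upstream region at −41.3 kb, chr16:92867443-92867550, plus strand: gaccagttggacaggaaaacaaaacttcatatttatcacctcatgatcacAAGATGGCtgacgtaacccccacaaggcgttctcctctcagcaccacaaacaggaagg

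In all, 8 of the 10 genes had an own-promoter peak in every library (Runx1, Tal1, Fli1, Erg, Lmo2, Meis1, Lyl1 and Hhex). Over all protein-coding genes the share was 36%. With a promoter distance of 1 kb in place of 3 kb, 6 of the 10 genes had such a peak in every library. In WT replicate 1 the nearest peaks to the starts of Lyl1 and Erg lay between 1 and 3 kb away. The Lyl1 peak was in the region shared with Nfix, described below. The share over all genes is given for 3 kb only. A peak near any annotated start of a gene counted, and the 10 genes had between 1 (Lyl1) and 16 (Mecom) starts. Genes with a matched number of starts were not compared. Gata2 had an own-promoter peak in WT replicate 1 only and Mecom had none, while 49.3% of all genes had none in any library. Regions with a peak in the 10 loci numbered 24 and 42 for WT and 22 and 44 for XistΔ/Δ. Own-promoter regions differed little between the shallow and deep libraries, at 11 and 13 for WT and 11 and 12 for XistΔ/Δ. Distal regions differed the most, at 6 and 17 for WT and 4 and 22 for XistΔ/Δ.

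**Figure D1:**
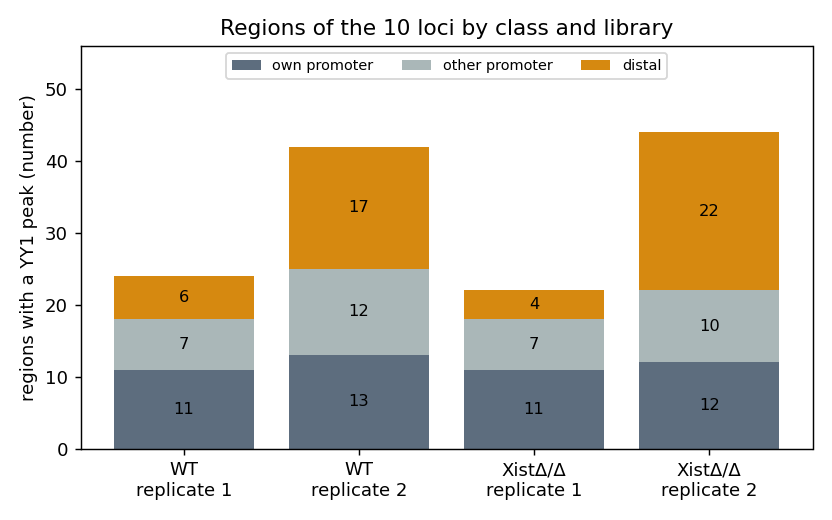
Number of regions of the 10 loci with a YY1 peak in each library (vertical axis), stacked by class. Own-promoter regions number between 11 and 13 in every library, whereas distal regions number 6 and 4 in the replicate 1 libraries of WT and XistΔ/Δ and 17 and 22 in the deeper replicate 2 libraries.

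The map of regions by distance from the start of each gene showed where this binding sat. Runx1 and Lyl1 held 13 and 14 of the 56 regions, and Tal1 and Mecom held 1 each. Of the 3 classes, own-promoter regions most often had a peak in all 4 libraries, in 10 of 15. For promoters of neighbours it was 5 of 14 and for distal regions 2 of 27. Among consensus regions alone these were 10 of 11, 5 of 9 and 2 of 14, and 17 of 34 in all. Among consensus regions of the whole genome 54.8% had a peak in all 4 libraries, and 19.5% of the distal ones had. The genome share for promoter regions alone is not given, so the own-promoter count has no background beside it. Regions found in both replicate 2 libraries and neither replicate 1 library numbered 9 of 34 consensus regions in the loci, against 25.1% in the genome, and 8 of these 9 were distal (8 of 14 distal consensus regions, against 52.4% in the genome). No consensus region was found in both replicate 1 libraries and neither replicate 2 library. Outside the consensus, 3 regions had a peak in WT replicate 1 alone.

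**Figure D2:**
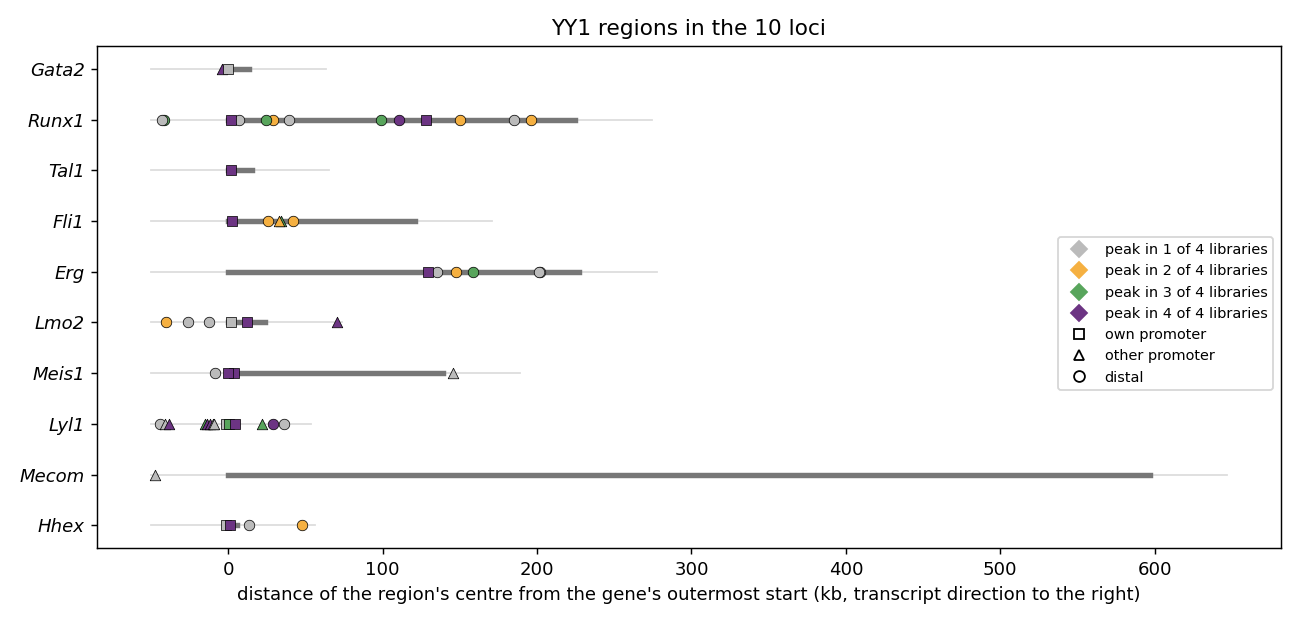
Position of each YY1 region in the 10 loci, as the distance of its centre from the outermost annotated start of the gene (kb, with the direction of transcription to the right). Thick bars are gene bodies, thin lines the 50 kb on either side, colours the number of libraries with a peak and symbols the class of region. Regions with a peak in all 4 libraries are mostly own promoters, Runx1 carries a string of distal regions along its body, and the Mecom gene body carries none.

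The distal signal was spread unevenly. A distal region in all 4 libraries was present in the loci of 2 genes, Runx1 and Lyl1, and in the loci of 5.05% of all genes. Distal consensus regions had a median density of 7.09 per Mb of locus over the 10 genes and 0 over all genes, and the means were 6.39 and 2.15 per Mb. The 10 genes are long, with a median length of 72.3 kb against 17.4 kb, and the density was counted per length of locus for that reason. Counting per length does not make the medians comparable, as the median number of such regions per locus was 0 over all genes. Genes of matched length were not compared. Runx1 alone held 7 of the 14 distal consensus regions.

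Summed over the 10 loci, the genotypes did not separate. There were 28 and 45 peaks for WT and 28 and 51 for XistΔ/Δ. The XistΔ/Δ mean exceeded the WT mean by 3 peaks (39.5 ± 16.3 against 36.5 ± 12.02, SD, n = 2 each), with differences of 0 in replicate 1 and 6 in replicate 2 and a two-sided exact permutation p of 1. With 2 against 2 libraries that test cannot give a p below 0.333. The summed width of the peaks was 34332 and 63254 bp for WT and 24675 and 65684 bp for XistΔ/Δ. The means differed by −3613.5 bp, XistΔ/Δ minus WT (exact permutation p = 1), at −9657 bp within replicate 1 and 2430 bp within replicate 2, so its sign depended on the replicate number.

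Own-promoter peaks numbered 14 and 15 for WT and 15 and 18 for XistΔ/Δ, a difference of 2 in the means (14.5 ± 0.707 and 16.5 ± 2.12, SD, n = 2 each, exact permutation p = 0.667). The groups overlapped at 15 peaks. Their summed width was 19851 and 34229 bp for WT and 13575 and 33274 bp for XistΔ/Δ, so each XistΔ/Δ library fell below the WT library of its own number, by differences of −6276 and −955 bp, while the groups overlapped (exact permutation p = 0.667). Distal peaks numbered 6 and 18 for WT and 4 and 23 for XistΔ/Δ, with differences of −2 in replicate 1 and 5 in replicate 2 (exact permutation p = 1). Summed distal width was 4614 and 13340 bp for WT and 3217 and 17609 bp for XistΔ/Δ, which differed by −1397 bp in replicate 1 and 4269 bp in replicate 2 (exact permutation p = 1). The values for distal binding thus took opposite signs in the 2 replicate numbers.

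None of the 34 consensus regions was KO-specific (called in each XistΔ/Δ library but in no WT library) or WT-specific (the reverse). In the genome 1.24% of consensus regions were KO-specific and 0.452% were WT-specific, so the count of 0 lies close to the background. Strength was compared by rank, since the lists give no signal per peak. For each library the widest peak of every consensus region was given its percentile among the consensus regions, with 0 for no peak. A region was higher-ranked or lower-ranked in XistΔ/Δ when its percentile moved in that direction within both replicate numbers. Of the 34 regions, 4 were higher-ranked, 10 were lower-ranked and 20 were neither, against 19.6% higher-ranked and 18.8% lower-ranked in the genome.

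The genes' own promoters made up 5 of the 10 lower-ranked regions. Of 11 own-promoter consensus regions, 5 were lower-ranked (Runx1 P1, Fli1, Erg, Lmo2 and Hhex), none was higher-ranked and 6 were neither. Among all promoter consensus regions 21.5% were lower-ranked and 20.7% higher-ranked. Of the 9 promoters of neighbours 2 were higher-ranked and 2 lower-ranked, and of the 14 distal regions 2 were higher-ranked and 3 lower-ranked. Regions are not replicates, and no test was made on these counts. The Erg region is among the lower-ranked ones although its replicate 1 peaks did not overlap between genotypes. The widest peak is shorter where a region was called as several peaks, and when the summed width gave the rank, 3 of the 11 were lower-ranked (Fli1, Lmo2 and Hhex) and 1 was higher-ranked (Runx1 P2). Within a single replicate number 8 of the 11 ranked lower and 3 ranked higher in XistΔ/Δ, in replicate 1 as in replicate 2, but not the same regions.

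**Figure D3:**
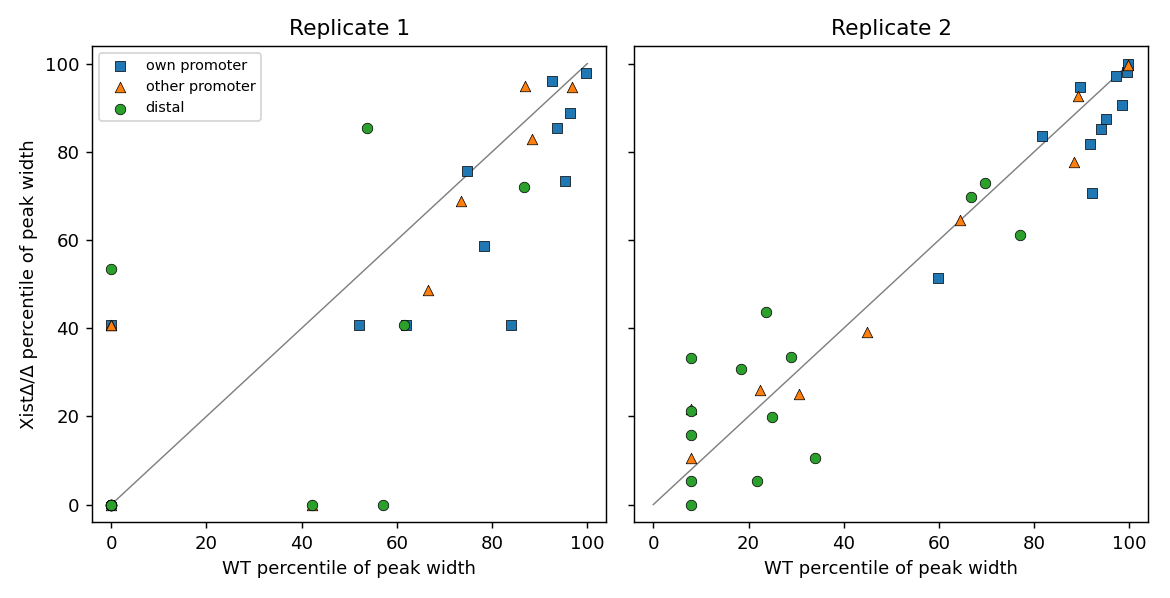
Percentile of the widest YY1 peak in each of the 34 consensus regions in XistΔ/Δ (vertical axis) against WT (horizontal axis), for the replicate 1 libraries (left) and the replicate 2 libraries (right), with symbols for the class and the line of equality. Points at 0 had no peak in that library. No own-promoter region lies above the line in both panels, and the scatter is wider in replicate 1, where the libraries are shallower.

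Width at the promoters gave a similar count. Counting only peaks that themselves came within 3 kb of a start, all 8 genes with an own-promoter peak in every library had a smaller summed width in XistΔ/Δ than in WT in replicate 1, as did 65.6% of the 7833 such genes in the genome. In replicate 2, 6 of the 8 had a smaller width, against 50.2% of genes. Both held for the same 6 genes (Runx1, Fli1, Erg, Lmo2, Meis1 and Hhex), against 33.6% of genes, and none of the 8 was wider in both, against 15.9%. Runx1 was among the 6 only under this rule: with all peaks of its promoter regions the widths were 6746 bp in WT and 7162 bp in XistΔ/Δ in replicate 2, and 5 genes were narrower in both. When the width was replaced by its percentile among those 7833 genes, which sets aside the narrower peaks of XistΔ/Δ replicate 1, 5 of the 8 were lower in both replicate numbers (the same genes without Meis1) and none was higher, where 24.4% of genes were lower and 26.2% higher. The count was made after the values had been seen. Some of the differences in percentile were very small. Runx1 moved from 99.7 to 99.5 in replicate 1 and from 99.7 to 99.6 in replicate 2. Erg stood at 94.8 in both replicate 2 libraries, and its replicate 1 peaks did not overlap between genotypes. Lmo2 moved more, from 64.5 to 7.02 and from 90.1 to 64.2. In XistΔ/Δ replicate 1 Fli1, Erg and Lmo2 each had 501 bp, the most frequent width.

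**Figure D4:**
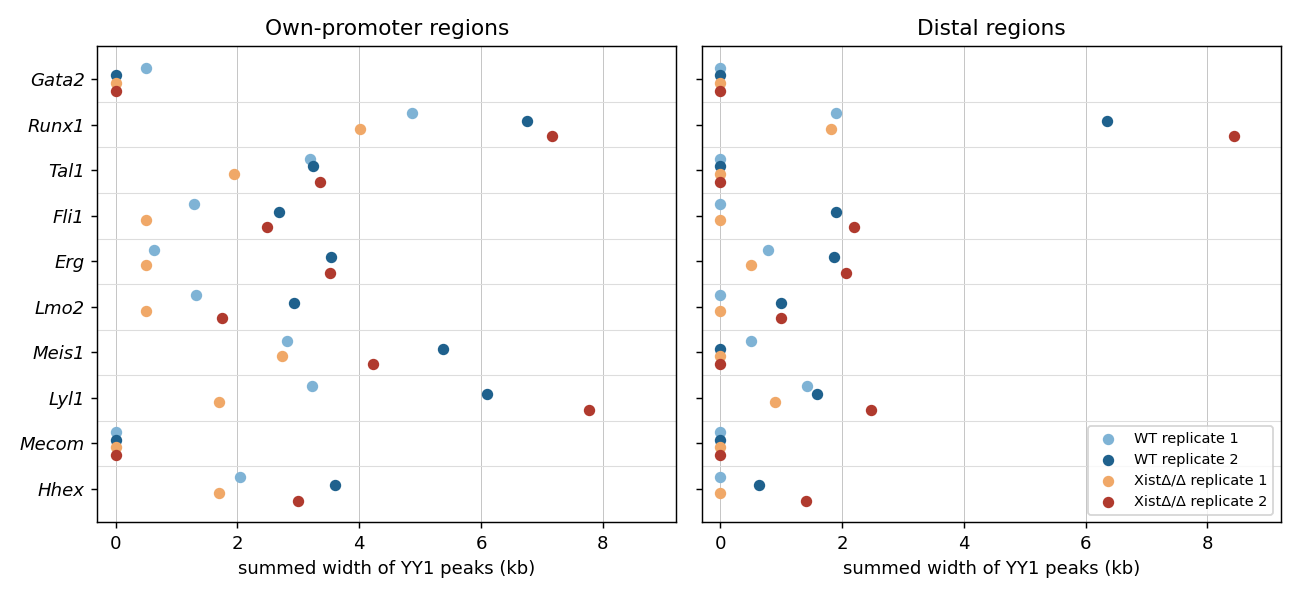
Summed width of YY1 peaks in the own-promoter regions (left) and distal regions (right) of each gene (kb, horizontal axis), with 1 point per library. At the own promoters of Fli1, Erg, Lmo2, Meis1 and Hhex the XistΔ/Δ point lies left of the WT point of the same replicate number in both replicates, and Runx1 has the largest distal width in every library.

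Gata2 (ENSMUSG00000015053.14, chr6:88193891-88207032, plus strand) had its only YY1 region shared by all 4 libraries just upstream of its promoter. The region chr6:88189341-88190231 had peaks of 891 and 770 bp for WT and 626 and 762 bp for XistΔ/Δ. It sits upstream, at −4.1 kb from the Gata2 start, in and around an exon of the noncoding gene Gm38708, and counted as a neighbour's promoter because a start of that gene is nearby. Its core, shown above, lay 26 bases from the centre of the region. The summed width differed by −265 bp in replicate 1 and −8 bp in replicate 2, XistΔ/Δ minus WT, and the region was lower-ranked, with percentiles of 66.5 and 30.7 for WT and 48.6 and 25.1 for XistΔ/Δ.

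At the Gata2 start itself a peak of 501 bp, the most frequent width in every list, was called in WT replicate 1 alone, and in the other libraries the nearest peak ended between 3.68 and 3.79 kb away. The 3 other annotated starts of Gata2, further into the gene, held no peak in any library. The intronic enhancer of Gata2 known for its paired E-box and GATA motif was looked for as CATCTG followed by 8 bases and AGATAA. A single match in the locus, chr6:88203185-88203204 on the plus strand, lay 9.29 kb into the gene.
Gata2 paired E-box and GATA letters, capitals marking both: CATCTGcagccggtAGATAA
The nearest YY1 peak was 9.11 kb away in WT replicate 1, 13.0 kb in WT replicate 2 and 13.1 and 13.0 kb in XistΔ/Δ. No YY1 peak was thus called at this site in these libraries.

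Runx1 (ENSMUSG00000022952.17, chr16:92601466-92826149, minus strand) had the widest own-promoter binding of the 10 genes in both replicate 1 libraries and in WT replicate 2, and the most distal binding in every library. At P1 the region chr16:92821846-92826700 held 3710 and 4592 bp of peak for WT and 2703 and 4606 bp for XistΔ/Δ. Its percentiles of 99.7 and 99.5 for WT and 97.9 and 98.1 for XistΔ/Δ kept it near the top of every list although it was lower-ranked. In XistΔ/Δ the region was broken into 2 peaks in replicate 1 and 3 in replicate 2, and in WT it was 1 peak in each library, so the widest peak was shorter in XistΔ/Δ while the summed width in replicate 2 was 4592 bp in WT and 4606 bp in XistΔ/Δ.

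The proximal promoter P2 lies 128.8 kb into the gene. Its region, chr16:92696488-92699048, had widths of 1152 and 2154 bp for WT and 1307 and 2556 bp for XistΔ/Δ, so it was wider in XistΔ/Δ in both replicates. Its widest peak moved from percentile 78.3 to 58.7 in replicate 1, where XistΔ/Δ had 2 peaks, and from 89.7 to 94.6 in replicate 2, which left it neither higher-ranked nor lower-ranked. Both promoters were inside a peak in all 4 libraries.

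Between the promoters of Runx1 lay the intronic region chr16:92714742-92716143, 110.7 kb downstream of P1, which was the only distal region of the gene with a peak in every library. Its width was 652 and 1325 bp for WT and 1190 and 1402 bp for XistΔ/Δ. Both XistΔ/Δ values exceeded the WT value of their number, the WT value of replicate 2 exceeded the XistΔ/Δ value of replicate 1, and the region was higher-ranked, with percentiles of 53.8 and 66.7 for WT and 85.5 and 69.8 for XistΔ/Δ. The core printed above lay 36 bases from its centre.

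The widest distal region of Runx1, chr16:92800692-92802176, lay 24.7 kb downstream of P1 in an intron. No peak was called there in WT replicate 1, and the widths were 1403 bp in WT replicate 2 and 632 and 1465 bp in XistΔ/Δ replicates 1 and 2. It was higher-ranked, at percentiles of 0 and 69.6 for WT and 53.4 and 72.9 for XistΔ/Δ, with most of the difference in replicate 1. No YY1 core was found anywhere in this region.

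Further Runx1 regions, named after their values were seen, were narrow, and 3 of the 4 were called in the replicate 2 libraries only. The upstream region at −41.3 kb, in an intron of the noncoding gene Gm49723, had 751 and 501 bp in WT and none and 753 bp in XistΔ/Δ, with the core 2 bases from its centre. Regions at 150.2 and 29.2 kb had peaks in the replicate 2 libraries only, of 680 and 933 bp and of 652 and 501 bp in WT and XistΔ/Δ, with cores 15 and 19 bases from the centre. The region at 196.0 kb, near the end of the gene, held 4 copies of AAGATGGC at a spacing of 14 bases and 1 more copy beyond the array, and had peaks of 501 bp in WT replicate 2 and 808 bp in XistΔ/Δ replicate 2 and none in the replicate 1 libraries.

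**Figure D5:**
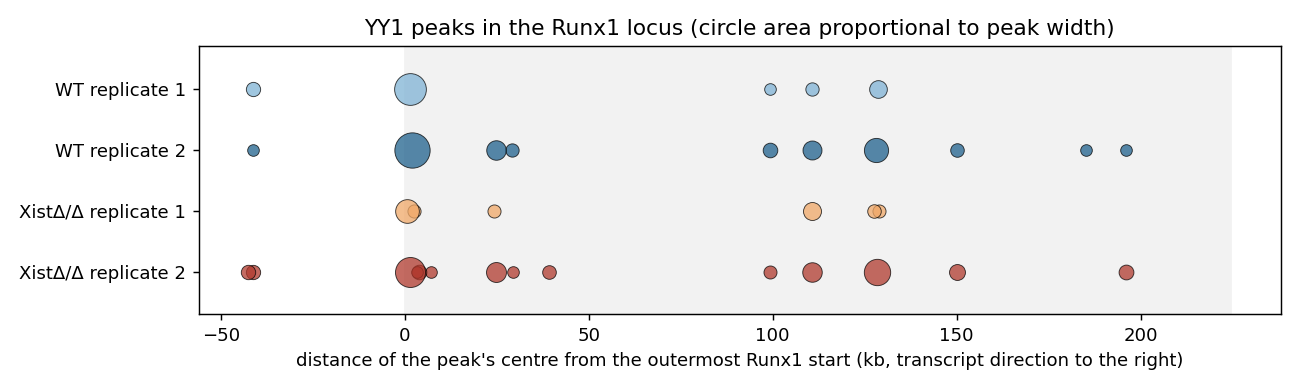
YY1 peaks of each library along the Runx1 locus, with the distance of the peak's centre from the outermost start on the horizontal axis (kb), circle area proportional to the width of the peak and the gene body shaded. Peaks at P1, near 110.7 kb and at P2 appear in all 4 libraries, and most of the others appear only in the replicate 2 libraries.

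Tal1 (ENSMUSG00000028717.12, chr4:115056426-115071755, plus strand) had all of its binding at its promoters. The region chr4:115056092-115059755 was the single region of the locus and took in the starts of the gene. Widths were 3184 and 3238 bp for WT and 1945 and 3362 bp for XistΔ/Δ, so 3 libraries were close to each other and XistΔ/Δ replicate 1 was low. It was neither higher-ranked nor lower-ranked, with percentiles of 96.4 and 81.7 for WT and 88.9 and 83.6 for XistΔ/Δ. Enhancers are known downstream of Tal1, and no library had a peak in the rest of the locus.

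Lyl1 (ENSMUSG00000034041.4, chr8:84701457-84704715, plus strand), the close relative of Tal1, differed from it in its surroundings. It is the shortest of the 10 genes, its locus held 14 regions, and 8 of these were at promoters of neighbours, among them Ier2 (an immediate early gene), Nacc1 and Trmt1. At the Lyl1 start the region chr8:84701023-84702205 had no peak in WT replicate 1 and widths of 1183 bp in WT replicate 2 and 501 and 1047 bp in XistΔ/Δ. A further own-promoter region, chr8:84699797-84700438, had a peak of 642 bp in XistΔ/Δ replicate 2 alone. The broad region chr8:84702532-84708615 runs from the Lyl1 gene into the start of Nfix, a neighbouring transcription factor gene, and had widths of 3219 and 4913 bp for WT and 1189 and 6084 bp for XistΔ/Δ. Binding there cannot be assigned to 1 of these genes, and the genotypes differed in opposite directions in replicates 1 and 2.

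The distal region of the Lyl1 locus with a peak in every library, chr8:84729510-84731160, lies in an intron of Nfix. Its width was 1428 and 1591 bp for WT and 894 and 1216 bp for XistΔ/Δ. Both XistΔ/Δ values lay below both WT values, which held for 5.17% of the 638 distal consensus regions of the genome with a peak in every library. The region was lower-ranked, with percentiles of 86.7 and 76.9 for WT and 71.9 and 61.1 for XistΔ/Δ. It held a pair of cores, 149 bases from the centre for the nearer. Among the promoters of neighbours with a peak in every library, the Ier2 region had 4000 and 4901 bp for WT and 2656 and 5117 bp for XistΔ/Δ. Of the Nacc1 and Trmt1 regions, chr8:84688448-84690521 was lower-ranked, with 1504 and 2074 bp for WT and 1115 and 1604 bp for XistΔ/Δ, and chr8:84687093-84688428 was neither, with 1031 and 1283 bp for WT and 814 and 1294 bp for XistΔ/Δ.

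The ETS genes Fli1 and Erg each had a promoter that was narrow in the replicate 1 libraries and broad in the replicate 2 libraries. This was not particular to them. The other genes with an own-promoter peak in every library also had a larger summed width in replicate 2, in both genotypes. Over all genes with an own-promoter peak the median width was 1065 and 1436 bp for WT and 943 and 1415 bp for XistΔ/Δ. In Fli1 (ENSMUSG00000016087.13, chr9:32422204-32542861, minus strand) the region chr9:32539167-32541909 had widths of 1286 and 2686 bp for WT and 501 and 2489 bp for XistΔ/Δ. The XistΔ/Δ library was the narrower in both replicate numbers, and the region was lower-ranked, at percentiles of 61.9 and 95.2 for WT and 40.6 and 87.5 for XistΔ/Δ. The peaks covered the second start of the gene in the replicate 2 libraries and ended within 0.244 kb of it in the others. The widest distal region of Fli1, in an intron 42.2 kb downstream, was seen in the replicate 2 libraries only, with 1401 bp in WT and 1564 bp in XistΔ/Δ.

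In Erg (ENSMUSG00000040732.20, chr16:95359169-95586593, minus strand) binding sat at an internal promoter. The outermost start was over 115 kb from any peak in each library, and the region chr16:95455530-95459213 ended 32 bp from the group of starts 127.2 kb into the gene. Its widths were 637 and 3544 bp for WT and 501 and 3524 bp for XistΔ/Δ, so differences between replicate numbers were far larger than those of −136 and −20 bp between genotypes. In replicate 1 the peak lay 2.88 kb from these starts in WT and 0.364 kb from them in XistΔ/Δ. Those peaks shared no base and were joined only through the broad replicate 2 peaks. The −136 bp and the replicate 1 percentiles thus compare different sites. It was lower-ranked all the same, at percentiles of 52.1 and 98.5 for WT and 40.6 and 90.6 for XistΔ/Δ, where XistΔ/Δ replicate 2 had 2 peaks and WT replicate 2 had 1. The distal region chr16:95427608-95428573 was the longest distal one of Erg and ran against depth, with 781 and 501 bp in WT, 501 bp in XistΔ/Δ replicate 1 and no peak in the deepest library, XistΔ/Δ replicate 2. It was lower-ranked, at percentiles of 61.5 and 7.98 for WT and 40.6 and 0 for XistΔ/Δ.

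In Lmo2 (ENSMUSG00000032698.15, chr2:103957986-103981878, plus strand) YY1 was at the inner promoter. The region chr2:103969092-103971395, at the group of 6 starts 11.5 kb into the gene, had widths of 1313 and 2304 bp for WT and 501 and 1742 bp for XistΔ/Δ. It was lower-ranked, at percentiles of 83.9 and 91.7 for WT and 40.6 and 81.8 for XistΔ/Δ. A second own-promoter region, by the outermost starts, was called in WT replicate 2 alone with 628 bp. Across both, Lmo2 had the lowest difference in own-promoter width of the 10 genes in replicate 2, at −1190 bp (XistΔ/Δ minus WT), and −812 bp in replicate 1. The promoter of the neighbour Fbxo3, in the same locus, went the other way, with 1439 and 2125 bp for WT and 1670 and 2337 bp for XistΔ/Δ, and was higher-ranked, at percentiles of 86.9 and 89.2 against 94.8 and 92.6. Upstream of Lmo2 the widest distal region, at −40.4 kb, had peaks of 501 bp in both replicate 2 libraries and none in the others.

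Meis1 (ENSMUSG00000020160.18, chr11:18879817-19018985, minus strand) had 2 own-promoter regions with a peak in every library. The region chr11:19017652-19020770, over the outermost starts, had widths of 1049 and 2837 bp for WT and 939 and 2338 bp for XistΔ/Δ. The region chr11:19013988-19016586, 3.7 kb into the gene and shared with the noncoding gene Gm16141, had 1764 and 2540 bp for WT and 1790 and 1883 bp for XistΔ/Δ. Their sum differed by −84 bp in replicate 1 and −1156 bp in replicate 2, XistΔ/Δ minus WT. Neither region was higher-ranked or lower-ranked, since both had a higher percentile in XistΔ/Δ in replicate 1 and a lower one in replicate 2. The single distal peak, upstream at −8.3 kb, was called in WT replicate 1 only.

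Hhex (ENSMUSG00000024986.12, chr19:37434810-37440731, plus strand) had its main region, chr19:37434000-37437219, over its start. Widths were 2036 and 3109 bp for WT and 1698 and 3001 bp for XistΔ/Δ, which put each XistΔ/Δ library below the WT library of its number with the groups overlapping. It was lower-ranked, at percentiles of 95.2 and 97.3 for WT and 73.5 and 97.2 for XistΔ/Δ. In replicate 1 the XistΔ/Δ library had 2 peaks there and the WT library 1, and in replicate 2 the percentiles differed by little. A second own-promoter region, chr19:37433221-37433721, had a peak of 501 bp in WT replicate 2 alone. A distal region 47.9 kb downstream had peaks of 633 bp in WT replicate 2 and 783 bp in XistΔ/Δ replicate 2.

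Mecom (ENSMUSG00000027684.16, chr3:29951296-30548008, minus strand), the longest of the 10 genes, had no YY1 peak in its body in any library. Its 16 annotated starts fall into 7 groups, and the nearest peak to any of them, 46.9 kb away, was a peak of 632 bp in WT replicate 2 at the start of the noncoding gene 1600017P15Rik. The other libraries had no peak in the locus. An absence from these lists says that no peak passed the threshold of the caller, and binding below it was not detectable at this depth.

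Windows of 250 bases upstream to 50 bases downstream of the annotated RefSeq starts (build GRCm38) were found for 8 of the 10 genes, 14 windows in all. None of the 14 held AANATGGC, where 6.05% of the 32851 such windows of the genome did. The windows include some of Runx1, Tal1, Meis1 and Hhex that peaks of all 4 libraries overlapped. The cores in the Runx1 P1 and Erg promoter regions, shown above, lay further into the genes. Letters for other factors were counted in the central 300 bases of the 14 distal consensus regions, on both strands. The GATA letters AGATAA occurred in 1 of 14 against 13.5% of the distal consensus regions of the genome, the ETS letters CCGGAA in 1 against 9.15%, the E-box CAGCTG in 3 against 19.4% and the RUNX letters TGTGGT in 4 against 27.6%. The median GC content of these windows was 47.5% in the loci and 48.3% in the genome.

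The same readout at a list of 16 partners and fellow factors gave the setting. Of these, 11 had an own-promoter peak in all 4 libraries, among them Cbfb (the partner of Runx1), Ldb1 (which joins Lmo2 complexes), Tcf3 and Tcf12 (partners of Tal1 and Lyl1), Hoxa9, Etv6, Bmi1 and Myb. Etv6 had own-promoter widths of 1592 and 3272 bp for WT and 1689 and 3406 bp for XistΔ/Δ. Gfi1b and Prdm16 had no own-promoter peak in any library. A distal region in all 4 libraries lay in the loci of 3 of the 16 (Tcf12, Pbx3 and Bmi1).

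Cell type markers were checked in the same way, with the limit that a YY1 peak is not a measure of expression. Of 8 markers of stem and progenitor cells, Ptprc (CD45) had an own-promoter peak in all 4 libraries, 4 had one in some libraries (Kit, Cd34, Flt3 and Cd48) and 3 had none. Of 9 genes of mature blood cells none had one in all 4 libraries, 3 had one in some and 6 had none. Of 8 genes of tissues other than blood, such as Alb and Myod1, none had an own-promoter peak in any library. Genes of mature blood cells with such a peak numbered 0 and 3 for WT and 1 and 2 for XistΔ/Δ, and their part in the results was not tested.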

How the data were processed

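Per the labels and the methods of the study, crosslinked Lin− chromatin was digested with micrococcal nuclease and precipitated with an anti-YY1 antibody. The authors trimmed reads with Trim Galore, aligned them to mm10 with Bowtie2 2.3.5.1, removed reads of mapping quality under 30 and duplicates, and called peaks in each library with HOMER 4.9.1 (per the file headers: 500 bp peaks joined into regions, false discovery rate 0.001, 4 fold over surroundings, no input library named). Without an input, peaks also follow chromatin openness and copy number, and more tags bring weaker peaks past the threshold and widen others. The deposited lists give positions and a score, and the deposited score is 1 for every peak, so width (end minus start) stood in for strength. Tags in peaks made up between 3.58% and 4.88% of all tags. Replicate numbers in the headers differ from those of the labels, which were followed.

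Peaks sharing at least 1 bp over the 4 lists were merged into regions. Sums over a library were compared with a two-sided exact permutation test of 2 against 2 libraries, which cannot go below p = 0.333. Scripts were written in Python 3.11.15 with numpy 2.4.6 and pysam 0.24.0, and tested on simulated data. The genes and lists were chosen with earlier results of these data known. All 10 genes and their own-promoter regions are named, as are distal regions called in every library or the widest of a gene, and neighbours' promoters called in every library. Same-numbered libraries share a header number of unstated meaning, so a paired value was computed. Alternatives were a locus of 10 or 100 kb, a promoter distance of 1 kb, a consensus of 3 libraries, lists of equal length, wider peaks only, values per M tags, at least 50% of a peak inside the locus and leaving out each library. The 8 histone mark samples were not analysed here. A few genes of the partner and marker lists are counted but not reported by name here.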

Additional observations from a re-analysis of the deposited data

How the results depend on the processing

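Differences below are XistΔ/Δ minus WT means. With 2 against 2 libraries the exact test cannot go below p = 0.333, and only directions and sizes can be compared. With lists cut to equal length the difference in peaks was 0, that in distal peaks −1.5 and that in summed distal width −1067 bp (exact permutation p = 0.333). Per M tags distal peaks differed by −0.0210 and distal width by −8.74 bp. The higher distal counts of XistΔ/Δ thus reversed in both settings. The deposited score is 1 for every peak, so the peaks kept in the shortened lists are not known to be the strongest. Own-promoter width kept its sign, at −169 bp per M tags (exact permutation p = 0.333). A locus of 100 kb on either side gave 7 higher-ranked regions in place of 4 and 4 genes with a distal region in every library in place of 2, and 10 kb gave 1. A promoter distance of 1 kb gave 6 genes in place of 8 with an own-promoter peak in every library. Without peaks of the most frequent width, 4 genes in place of 8 had an own-promoter peak in every library, since those of Fli1, Erg, Lmo2 and Lyl1 in XistΔ/Δ replicate 1 were of that width, and 3 genes in place of 6 were narrower in both replicate numbers. With the summed width as the rank, 3 own-promoter regions were lower-ranked in place of 5 and 1 was higher-ranked in place of 0; the cause was not tested. Leaving out each library in turn, the difference ranged from −8.5 to 14.5 in peaks, from −24118 to 16891 bp in summed width, from −13465 to 6234 bp in own-promoter width, from −8 to 11 in distal peaks and from −5760 to 8632 bp in distal width. KO-specific regions then ranged from 0 to 11, WT-specific from 1 to 8, higher-ranked from 8 to 17, lower-ranked 17 in each case, and own-promoter regions numbered 8 lower-ranked and 3 higher-ranked in each case, as a rank in a single replicate number needs no second one. Of these 5 differences, each was above 0 without WT replicate 2 or XistΔ/Δ replicate 1 and below 0 without WT replicate 1 or XistΔ/Δ replicate 2, while own-promoter peaks differed by 0.5 to 3.5. With the replicate block, which pairs the libraries of a number, the differences were the same (3 peaks with an exact permutation p of 1, −3615.5 bp of own-promoter width with p = 0.5, the smallest that 2 pairs allow), and no call changed. The header number that same-numbered libraries share is a hint of pairing only. Leaving out libraries aside, 81 of 93 values that summarise the loci kept the sign of the difference or, for counts, lay within 1.5 times the count given. Part of these could not change, so the tally overstates how stable the results are. The promoter distance does not enter sums over a whole locus, the locus window left the own-promoter sums as they were, and the replicate block keeps the mean difference. Sizes of differences were not always kept, as with the summed width, at −6570.5 bp with lists of equal length against −3613.5 bp. Of 50 values for the summed width of a single gene, 45 kept their sign, among them those for the promoter distance, which could not change. The exceptions were Runx1 (−834 in place of 785.5 bp) and Fli1 (−491 in place of 97 bp) with lists of equal length, Hhex (169 in place of −81.5 bp) with wider peaks only, and Mecom (0 in place of −316 bp) under 2 alternatives.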
